A study of Saccharomyces cerevisiae with 2 samples.

Results

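The mitochondrial ribosomal protein genes were examined as 67 probe sets of 66 genes, out of 5656 genes with a probe set of their own among the 9335 probe sets of the array. They were taken by symbol from the array annotation, as genes named MRPL, MRPS or RSM with a number, or MRP with a number other than *MRP8*, and only where a probe set, a group of short probes for a transcript, was annotated with a single gene. Of these genes, 38 encode proteins of the large subunit and 28 proteins of the small subunit. RNA came from *sdh3*Δ, a deletion of the cytochrome b subunit of succinate dehydrogenase made in a strain that lacks *URA3* function, grown aerobically in batch culture on minimal medium with glucose and uracil and sampled when 20 g/liter of glucose remained. The 2 *sdh3*Δ arrays are labelled as replicates 1 and 2, and nothing says whether they came from separate cultures, so the p-values below measure only the spread between these arrays, which may be technical. The reference values are those that the study set against its mutant, 3 arrays of the reference strain from an earlier experiment. Strain, experiment and array batch therefore cannot be told apart in any difference below, and in RNA of whole cultures neither can fewer cells with a transcript and less of it per cell.

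The mitochondrial ribosome translates the few messages of the mitochondrial genome, which in yeast encode core membrane subunits of the respiratory complexes and of ATP synthase, together with a ribosomal protein, Var1. All other proteins of this ribosome are made from nuclear genes in the cytosol and are imported. The small subunit reads the message at its decoding centre, and the large subunit joins the amino acids and releases the growing protein through its exit tunnel, next to the inner membrane. Many of these proteins have counterparts in bacterial ribosomes, while others are found only in mitochondria. Glucose represses respiration in yeast, and succinate dehydrogenase itself has nuclear-encoded subunits only.

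The deleted gene, *SDH3*, was low on both mutant arrays, at 22.0 and 29.3, against 528, 558 and 552 on the reference arrays. Intensity is on a linear scale and cannot be compared between probe sets. A probe set was taken as above background where it exceeded the highest of 19 probe sets for genes that yeast lacks, which was 54.8 on replicate 1 and 92.1 on replicate 2. All 19 of these were higher on replicate 2, with a median log2 ratio of 0.67.

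Reference values were at hand for 1996 of 6679 rows, those with the smallest p-values in the study's own comparison. They covered 21 of the 66 ribosomal protein genes, or 31.8%, close to the 29.9% of all rows. The other 45 genes were not compared between strains here. In *sdh3*Δ 13 of the 66 genes were lower, 2 were higher and 6 of those with reference values did not pass, at an adjusted p under 0.05 by limma, which compares log2 means with a variance estimated across all probe sets. Over all rows 10.2% were called lower and 0.719% higher, while 19.7% of the ribosomal protein genes were called lower and 3.03% higher. The median log2 difference was -1.47 for the 21 genes and -1.004 for the 1996 rows. No array of *sdh3*Δ overlapped the reference arrays in any of the 21 genes, 18 lower and 3 higher, but the same held for all 1996 rows, 88.2% lower and 11.8% higher, so that nothing about these genes can be read from it.

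The standard error was 0.46 on the log2 scale for every gene, because the variance came from the mutant arrays over all probe sets with no weight on a gene's own spread. Of the 21 genes 33.3% were over 2-fold lower on replicate 2 than on replicate 1, against 10.2% of all probe sets. Over 2-fold higher were 0 of them, against 3.91%. The error may therefore be too small for these genes, and their p-values too small. A log2 difference of at least 1.29 was needed to pass. An exact permutation test of 2 arrays against 3 cannot give a p below 0.1.

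**Figure D1:**
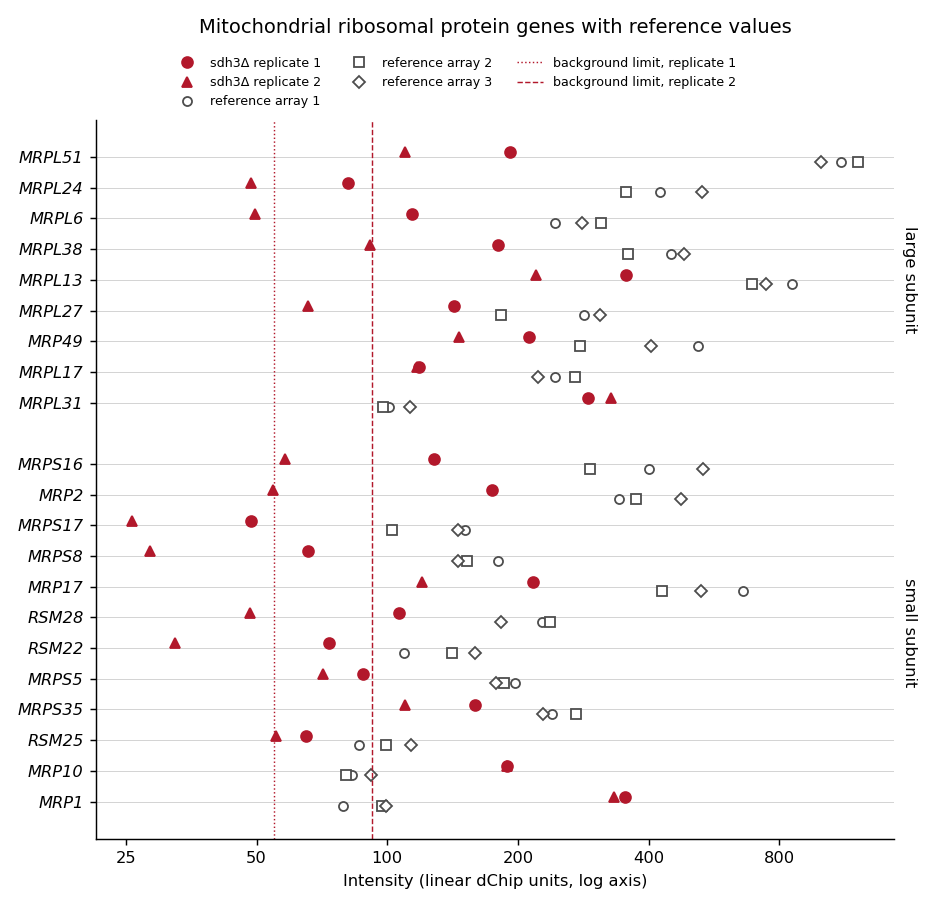
Intensity of the 21 mitochondrial ribosomal protein genes with reference values, on a log axis, for the 2 *sdh3*Δ arrays (filled red) and the 3 reference arrays (open grey), with the background limits of the mutant arrays as vertical lines. *MRPL31*, *MRP10* and *MRP1* lie to the right of their reference arrays in *sdh3*Δ, and the other 18 genes lie to the left.

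In the large subunit 6 of 38 genes were lower in *sdh3*Δ, 1 was higher and 2 with reference values did not pass. *MRPL51*, which encodes a protein found only in mitochondrial ribosomes, had intensities of 192 and 110 in *sdh3*Δ, against 1108, 1214 and 995 on the reference arrays. Both mutant arrays were above background and far below all reference arrays. The means were 151 ± 58.0 (SD, n = 2) in *sdh3*Δ and 1106 ± 109 (SD, n = 3) in the reference. By the difference of the log2 means, -2.93, the mutant was 7.61-fold lower (adjusted p = 4.6e-08 from limma).

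*MRPL24*, the counterpart of bacterial L28, had intensities of 81.0 and 48.6 in *sdh3*Δ, against 426, 354 and 531 in the reference. Its log2 difference was -2.78 (adjusted p = 2.7e-07 from limma). It was above background on replicate 1 only, and with values raised to the background limits the difference was at least 4.99-fold. These 2 genes were also the only members called lower when *sdh3*Δ replicate 2 was left out.

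*MRPL6* and *MRPL38* encode counterparts of bacterial L6 and L14, both bound to ribosomal RNA. *MRPL6* had 114 and 49.6 in *sdh3*Δ, against 244, 311 and 281 in the reference (log2 difference -1.88, adjusted p = 0.0012 from limma). *MRPL38* had 180 and 91.4 in *sdh3*Δ, against 450, 359 and 483 in the reference (log2 difference -1.74, adjusted p = 0.0034 from limma). In both genes replicate 2 was not above background, and on raised values the decreases were at least 2.71-fold and 3.32-fold.

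*MRPL13* and *MRPL27* encode proteins that bacterial ribosomes lack. *MRPL13* stayed above background on both arrays, with 355 and 220 in *sdh3*Δ against 854, 694 and 745 in the reference (log2 difference -1.45, adjusted p = 0.020 from limma). *MRPL27* had 142 and 65.7 in *sdh3*Δ, against 284, 183 and 309 in the reference (log2 difference -1.38, adjusted p = 0.028 from limma). Replicate 2 of *MRPL27* was not above background, and on values raised to background its decrease was at least 2.20-fold and did not pass (adjusted p = 0.17). The calls for both genes ended when reference array 1 was left out (adjusted p = 0.071 and 0.095), and that for *MRPL27* also without reference array 3 (adjusted p = 0.12). *MRPL13* did not pass with a prior variance estimated in bins of mean value (adjusted p = 0.10).

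*MRP49* and *MRPL17*, also specific to mitochondria, did not pass. *MRP49* had 212 and 146 in *sdh3*Δ, against 520, 278 and 406 in the reference (log2 difference -1.14, adjusted p = 0.10 from limma). *MRPL17* had 118 and 117 in *sdh3*Δ, against 243, 271 and 223 in the reference (log2 difference -1.06, adjusted p = 0.15 from limma). The replicates of *MRPL17* nearly coincided, which has no weight in this test.

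*MRPL31*, another protein that bacterial ribosomes lack, went the other way. Its intensities were 290 and 328 in *sdh3*Δ, against 101, 97.9 and 113 in the reference. Both mutant arrays were well above all reference arrays, and the means of 309 ± 26.9 (SD, n = 2) in *sdh3*Δ and 104 ± 8.04 (SD, n = 3) in the reference stand beside a difference of the log2 means of 1.57, or 2.97-fold (adjusted p = 0.0099 from limma). The call was lost without either mutant replicate (adjusted p = 0.055 without replicate 1 and 0.21 without replicate 2) and with a prior variance estimated in bins of mean value (adjusted p = 0.064).

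In the small subunit 7 of 28 genes were lower in *sdh3*Δ, 1 was higher and 4 with reference values did not pass. *MRPS16* and *MRP2* encode counterparts of bacterial S16 and S14. *MRPS16* had intensities of 128 and 58.3 in *sdh3*Δ, against 401, 293 and 535 in the reference (log2 difference -2.20, adjusted p = 8.9e-05 from limma). *MRP2* had 174 and 54.6 in *sdh3*Δ, against 341, 374 and 475 in the reference (log2 difference -2.01, adjusted p = 0.00045 from limma). Both were above background on replicate 1 only. With values raised to the limits they were at least 3.66-fold and 3.10-fold lower.

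*MRPS17* and *MRPS8* encode counterparts of the bacterial RNA-binding proteins S17 and S8. *MRPS17* had 48.6 and 25.9 in *sdh3*Δ, not above background on either array, against 151, 103 and 146 in the reference. The decrease was therefore at least 1.85-fold. By limma its adjusted p was 0.0011 as deposited and 0.47 after raising to background. *MRPS8* had 65.8 and 28.4 in *sdh3*Δ, against 180, 153 and 145 in the reference (log2 difference -1.87, adjusted p = 0.0012 from limma). Its replicate 2 was not above background, and on raised values it was at least 2.04-fold lower, without passing (adjusted p = 0.28).

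*MRP17*, the counterpart of bacterial S6, was above background on both mutant arrays. Its intensities were 217 and 120 in *sdh3*Δ, against 658, 430 and 529 in the reference, or 169 ± 68.3 (SD, n = 2) against 539 ± 115 (SD, n = 3). The difference of the log2 means was -1.72, or 3.29-fold lower in the mutant (adjusted p = 0.0039 from limma). With *MRPL51* and *MRPL13* it was one of the 3 genes called lower that were above background on both mutant arrays.

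*RSM28* and *RSM22* encode proteins of the small subunit, and the *RSM22* product resembles methyltransferases. *RSM28* had 106 and 48.4 in *sdh3*Δ, against 228, 237 and 183 in the reference (log2 difference -1.58, adjusted p = 0.0092 from limma). *RSM22* had 73.3 and 32.4 in *sdh3*Δ, against 109, 141 and 159 in the reference (log2 difference -1.47, adjusted p = 0.018 from limma). Neither was above background on replicate 2. On raised values *RSM28* was at least 2.17-fold lower and *RSM22* at least 1.64-fold, and both calls were lost (adjusted p = 0.19 for *RSM28* and 0.84 for *RSM22*). The call for *RSM22* also ended without reference array 2 or 3 (adjusted p = 0.052 and 0.076).

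*MRPS5*, *MRPS35* and *RSM25* did not pass. *MRPS5*, the counterpart of bacterial S5, had 88.0 and 71.2 in *sdh3*Δ, against 196, 186 and 178 in the reference (log2 difference -1.24, adjusted p = 0.065 from limma). *MRPS35* had 159 and 110 in *sdh3*Δ, against 239, 272 and 228 in the reference (log2 difference -0.89, adjusted p = 0.29 from limma). *RSM25* had 65.1 and 55.5 in *sdh3*Δ, against 86.1, 99.2 and 113 in the reference (log2 difference -0.72, adjusted p = 0.54 from limma). Each difference lay below the 1.29 needed to pass, so a decrease smaller than that could not be called in these genes. *MRPS5* and *RSM25* were not above background on replicate 2, and 2 of the 3 reference arrays of *RSM25* exceeded that limit. On raised values the decreases were at least 2.07-fold for *MRPS5* and 1.31-fold for *RSM25*.

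*MRP1*, whose product has a fold related to superoxide dismutases, was higher in *sdh3*Δ. It had intensities of 352 and 334 in *sdh3*Δ, against 79.3, 97.4 and 99.3 in the reference. The means were 343 ± 13.2 (SD, n = 2) in *sdh3*Δ and 92.0 ± 11.1 (SD, n = 3) in the reference. The difference of the log2 means was 1.91 (adjusted p = 0.0010 from limma). As only 2 of the 3 reference arrays exceeded the limit of 92.1, the increase is given as at least 3.56-fold. The mutant replicates lay close together and the call held without either of them. *MRP10*, a small protein with paired cysteine motifs, had 189 and 189 in *sdh3*Δ, against 82.9, 80.4 and 92.0 in the reference (log2 difference 1.15, adjusted p = 0.096 from limma). No reference array of *MRP10* exceeded that limit, so that *MRP10* was at least 2.05-fold higher, without passing.

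**Figure D2:**
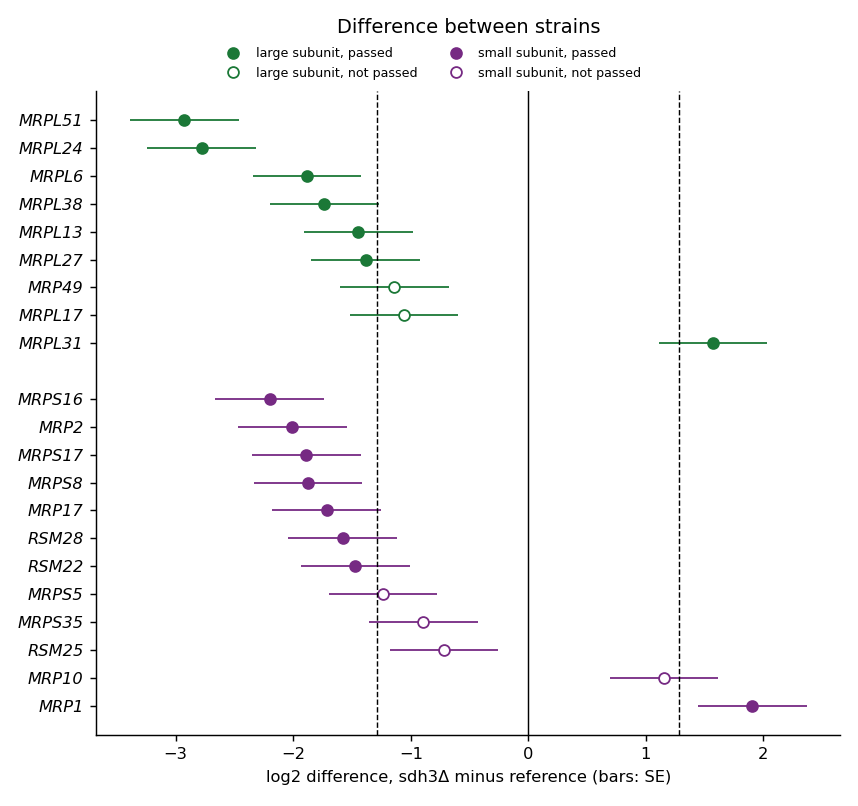
Log2 difference of *sdh3*Δ minus the reference for the 21 genes, with bars of 1 standard error (0.46 for every gene) and dashed lines at the difference of 1.29 needed to pass. The 15 genes that passed are filled, 13 of them to the left of 0 and 2 to the right.

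The calls of lower genes depended on *sdh3*Δ replicate 2. Of the 13 genes called lower, 9 were above background on replicate 1 only and 1 on neither array. Without replicate 2 limma called 2 members lower, against 121 of all rows or 1.81%, and without replicate 1 it called 13 members lower, against 528 of all rows or 7.91%. *MRP1* was called higher in each case. Without replicate 2 the log2 differences of the 13 genes lay between -2.52 and -0.83. Their sign was fixed, because neither mutant array overlapped the reference arrays in these genes. A shift of +0.5 (log2) in every mutant value left 4 members lower and 3 higher, the added increase being *MRP10*, and over all rows 254 lower and 98 higher in place of 681 and 48. The methods' t-test was run on linear intensities, so it differs from limma in scale as well as in variance. After Benjamini-Hochberg adjustment it called 0 members lower and 3 higher, and over all rows 98 lower and 33 higher. At an unadjusted p of at most 0.05 it gave 16 members lower and 3 higher. *MRPL31*, *MRP1* and *MRP10* were those it called after adjustment. Their mutant replicates lay close together, but so did those of *MRPL17*, at 118 and 117, and *MRPL17* was not called. Over all rows the same unadjusted level gave 1416 lower, or 21.2%, and 206 higher, or 3.08%. The rows at hand were kept for small p-values in the study's own comparison, so the unadjusted counts of members partly reflect that selection.

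By the uniform names of ribosomal proteins, which mark whether a protein has a counterpart outside mitochondria, 41 of the 66 genes encode proteins with a bacterial or universal counterpart, and 24 encode proteins specific to mitochondria. In the first class 9 genes had reference values, of which 8 were lower and 0 higher at an adjusted p under 0.05 from limma. These rows were kept for their small p-values. In the second class 11 had reference values, with 4 lower and 2 higher, *MRPL31* and *MRP1*. As a share of each class 19.5% and 16.7% were called lower, beside 10.2% of all rows, and the difference between the classes was not tested. *RSM22* has no uniform name in the gene table.

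All 67 probe sets were measured on both *sdh3*Δ arrays. On replicate 1 the lowest, median and highest intensity were 48.6, 158 and 521, and on replicate 2 they were 25.9, 81.7 and 1401. On replicate 1 66 of the 67 exceeded background, all but *MRPS17*, and on replicate 2 32 of the 67 did. Of all probe sets other than controls 58.9% exceeded background on replicate 1 and 34.0% on replicate 2. For the large subunit 39 of 39 and 23 of 39 probe sets were above the limits of replicates 1 and 2. For the small subunit 27 of 28 and 9 of 28 were, and the difference between the subunits was not tested.

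Most members were lower on replicate 2 than on replicate 1, with 53 of 67, or 79.1%, below and 14 above. Of all probe sets other than controls 46.9% were lower, and of the 6504 probe sets of 1 named gene 54.9% were. These 6504 had a median log2 ratio of -0.10, and 12.0% of them were over 2-fold lower and 4.04% over 2-fold higher. The median log2 ratio of replicate 2 over replicate 1 was -0.81 for the members, -0.70 for the large subunit and -0.94 for the small subunit, against 0.06 for all 9264 probe sets with values above 0 other than controls. By more than 2-fold, 25 of the 67 probe sets, or 37.3%, were lower on replicate 2, against 10.2% of all probe sets, and 5, or 7.46%, were higher, against 3.91%. These are 2 arrays of a single condition, and the ratios are given with no test. With ratios centred within bins of mean intensity the median of the members was -0.78. Gene length, between 213 and 1887 bases, had a Spearman correlation of 0.06 with the ratio over the members, which are not independent replicates. Mean intensity of the 2 arrays had one of 0.56, against 0.09 over all probe sets of 1 named gene. The same arrays enter the ratio and the mean, so the 2 measures are not independent. This also holds for the grouping by mean that follows. Of 24 members with a mean under 100, 0 had a ratio above 0, and their median was -1.14. Of 14 members with a mean of at least 250, 9 had a ratio above 0, and their median was 0.50. The medians of all probe sets at these levels were 0.08 and 0.14.

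**Figure D3:**
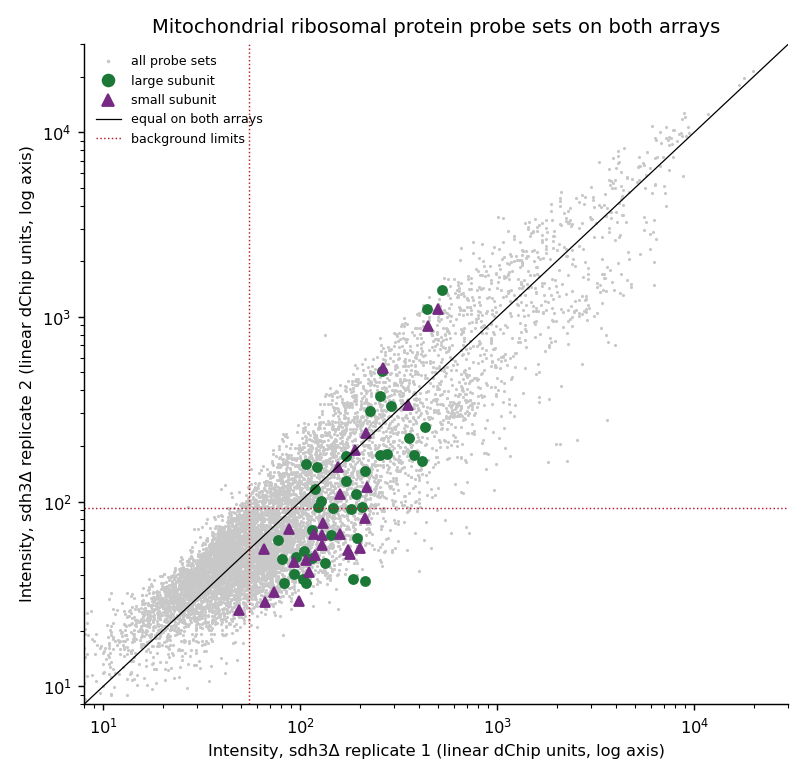
Intensity on *sdh3*Δ replicate 2 against replicate 1, both on log axes, for all probe sets (grey), the large subunit (green circles) and the small subunit (purple triangles), with a line of equal intensity and the background limits. Of the 67 members 53 lie below the line, and 34 lie above the limit on replicate 1 only.

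Of the members above background on replicate 1 only, 4 are given as examples, chosen after their values were seen. *MRPL15* had 212 on replicate 1 and 37.2 on replicate 2, and *MRPL20* had 185 and 38.2. Both encode proteins specific to mitochondria, and the probe set of *MRPL15* is of a kind that may match more than 1 transcript. *RSM10*, the counterpart of bacterial S10, had 200.1 and 56.2, and *RSM26*, a protein with a fold related to superoxide dismutases, had 178 and 52.1. Since their replicate 2 values lie under the limit of 92.1, the size and order of these decreases were not measured. *MRP21*, the counterpart of bacterial S21, had 98.3 and 28.9, also under the limit on replicate 2.

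Among the 32 probe sets above background on both arrays, the largest decreases on replicate 2 were in *MRPL10*, with 413 and 165, *MRPL36*, with 205 and 94.0, and *MRPL39*, with 376 and 179. Their products are counterparts of bacterial L15, L31 and L33. *MRP17* and *MRPL51*, described above, followed with log2 ratios of -0.85 and -0.81. Of these 32, 3 or 9.38% were over 2-fold lower and 5 or 15.6% over 2-fold higher, so that the balance of all members was not seen here. Their median ratio was -0.05, but a level above the higher limit of replicate 2 itself favours members that were not low there.

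A small group of members was higher on replicate 2. *MRPL8*, the counterpart of bacterial L17, had 521 on replicate 1 and 1401 on replicate 2, a log2 ratio of 1.43. *MRPL4*, the counterpart of bacterial L29 at the exit of the tunnel, had 439 and 1103. *MRPS12*, a protein of the decoding centre, had 498 and 1098. *MRP4* and *RSM7*, counterparts of bacterial S2 and S7, had 261 and 526, and 442 and 886. All 5 differed by more than 2-fold, in the direction opposite to most members, and none of them had reference values. *MRPL28*, specific to mitochondria, had 261 and 510, just short of 2-fold. *MRPL3* had 254 and 370.

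**Figure D4:**
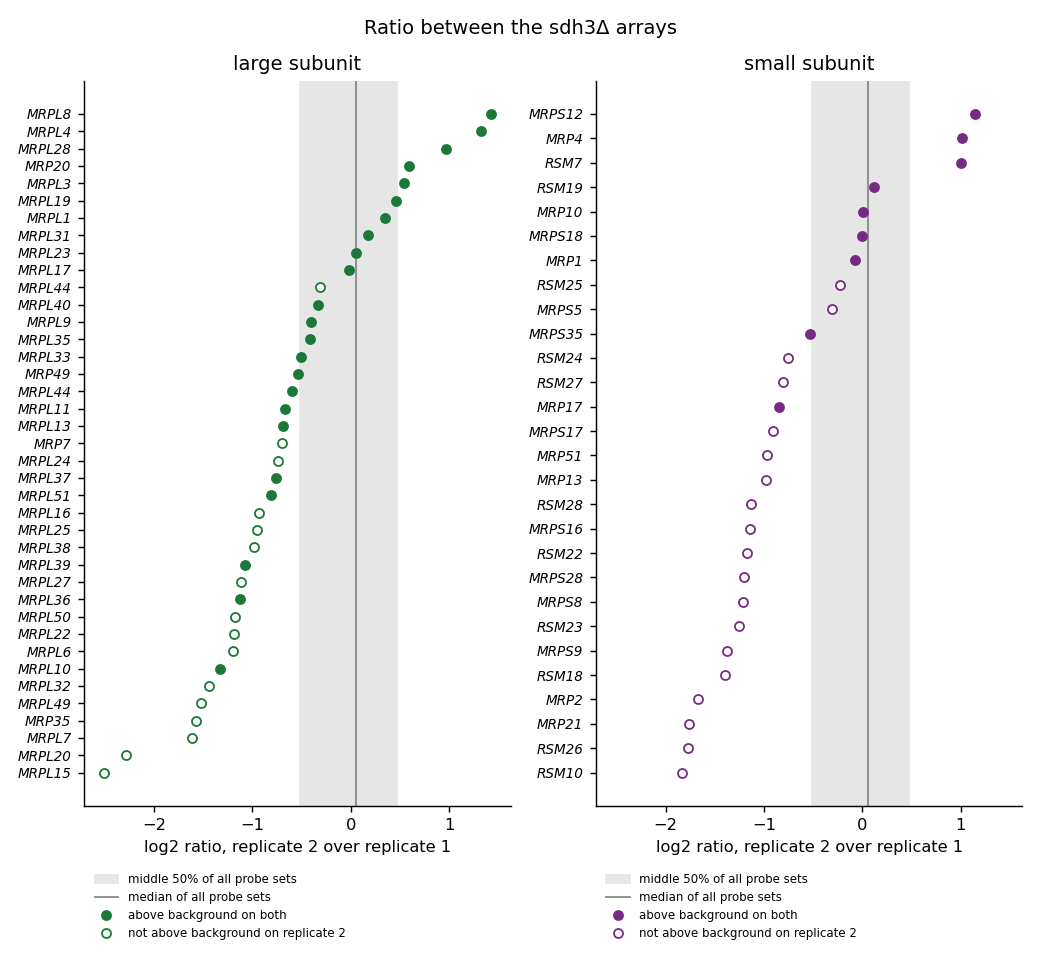
Log2 ratio of *sdh3*Δ replicate 2 over replicate 1 for each of the 67 probe sets, by subunit, filled where above background on both arrays. The grey band and line are the middle 50% and the median (0.06) of all probe sets, and 25 members lie below -1 and 5 above 1.

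Several large subunit genes passed the limit on replicate 1 only. *MRPL22*, at the wall of the exit tunnel, had 82.7 on replicate 1 and 36.3 on replicate 2. *MRPL50*, the counterpart of bacterial L9, had 92.3 and 40.7. *MRPL32*, known for its cleavage by an inner membrane protease before assembly, had 103 and 38.1. *MRPL44*, specific to mitochondria, was measured by 2 probe sets, with 275 and 182 for the first and 77.1 and 61.9 for the second. Both were lower on replicate 2, with log2 ratios of -0.60 and -0.32, and only the first was above background there. *MRPL37*, above background on both arrays, had 428 and 252.

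*MRPS12* and *RSM19* were the only members that are neighbours among protein-coding genes in the R64 gene table. *RSM19*, the counterpart of bacterial S19, had 215 on replicate 1 and 234 on replicate 2, a log2 ratio of 0.12, and *MRPS12* had one of 1.14. The neighbours thus did not share the size of their difference between the arrays.

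Proteins of the mitochondrial ribosome with other symbols were also examined. Of 13 such genes measured, 4 had reference values, of which 2 were lower and 0 higher. This is 15.4% of the 13 lower, beside 10.2% of all rows. *PET123*, a small subunit protein, had 60.2 and 28.7 in *sdh3*Δ, against 264, 156 and 226 in the reference (log2 difference -2.34, adjusted p = 2.5e-05 from limma). *SWS2*, related to bacterial S13, had 186 and 75.0 in *sdh3*Δ, against 419, 305 and 336 in the reference (log2 difference -1.57, adjusted p = 0.0099 from limma). Neither was above background on replicate 2, and on raised values the decreases were at least 2.82-fold for *PET123* and 2.68-fold for *SWS2*. *IMG2* and *MHR1* did not pass, with log2 differences of -1.19 and 1.07 (adjusted p = 0.082 and 0.14). Between the mutant arrays the genes with other symbols had a median log2 ratio of 0.04 over 14 probe sets, with values in both directions. *IMG1*, a large subunit protein, had 645.5 on replicate 1 and 2030 on replicate 2, while *MNP1*, related to bacterial L7/L12, had 357 and 89.7. Both were named after their values were seen. Lower values on replicate 2 were not limited to the members. Of 20 translation factor genes, described below, 16 were lower there, with a median log2 ratio of -0.36. Of 13 mitochondrial aminoacyl-tRNA synthetase genes 76.9% were lower, with a median of -0.41. These medians stand beside -0.81 for the members and -0.10 for all probe sets of 1 named gene, with no test.

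*VAR1*, the ribosomal protein gene of the mitochondrial genome, had no reference values here. Its 2 probe sets gave 10.6 and 9.23 on replicate 1 and 18.5 and 19.1 on replicate 2, and all of these lie under the background limits. The same held for the other mitochondrially encoded protein genes, whose 14 probe sets, *VAR1* included, reached at most 51.7. Their higher values on replicate 2, with a median log2 ratio of 0.71, stand beside 0.67 for the probe sets of genes that yeast lacks.

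Among factors that work with this ribosome, 20 genes were measured and 6 had reference values, of which 3 were lower and 0 higher. *MEF1*, a mitochondrial elongation factor, had 136 and 62.6 in *sdh3*Δ, against 360.2, 388 and 338 in the reference (log2 difference -1.97, adjusted p = 0.00062 from limma). *OXA1*, which inserts newly made proteins into the inner membrane, had 308 and 398 in *sdh3*Δ, against 1274, 1064 and 808 in the reference (log2 difference -1.56, adjusted p = 0.011 from limma). *AIM23*, an initiation factor, had a log2 difference of -1.36 (adjusted p = 0.034). Of 13 mitochondrial aminoacyl-tRNA synthetase genes 3 had reference values and 1 was lower, *MSY1*, for tyrosine, with 74.3 and 54.2 in *sdh3*Δ against 183, 187 and 184 in the reference (log2 difference -1.54, adjusted p = 0.012 from limma). *MEF1*, *AIM23* and *MSY1* were above background on replicate 1 only, and on raised values their decreases were at least 3.22-fold, 1.94-fold and 2.23-fold. Over all rows 10.2% were called lower.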

How the data were processed

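RNA of 2 *sdh3*Δ samples was measured on Affymetrix S98 arrays for yeast. Each of 9335 probe sets has a linear intensity, deposited by the authors, who scaled in Microarray Suite (version 5) and then applied dChip with its Perfect Match model. The baseline of that normalization and the genome build are not given in the sources used here. Of the probe sets 6504 had a single gene in the array annotation, 328 had several, 2443 had none and 60 were controls. On the log2 scale 11 probe sets that were not positive on both arrays were left out. No coordinates were used. Subunits followed the symbols and the uniform names in the R64 gene table, which also placed *MRP35* in the large subunit.

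The reference values, 3 arrays, are not among the deposited values. They were read from the study's table, of which 1996 of 6679 rows were at hand. Rows were matched by ORF, and the mutant values of all 21 member rows equal the deposited ones. Rows selected by their p-value allow no set test, and none was run. limma 3.58.1 in R 4.3.3 compared log2 means by its moderated test, two-sided, taking a prior variance of 0.256 from the mutant arrays over all probe sets and infinite prior degrees of freedom. The Benjamini-Hochberg adjustment ran over all 6679, with rows not at hand entered at a p-value of 1, so adjusted p-values are upper bounds. The fit was also run on simulated data with a single variance for all genes, no background limit and no selection of rows. That run therefore cannot test how these features of the real data affect the calls. No promoter or protein sequences were used here. The reference arrays' own background was not measured here, and the limit of replicate 2 stood in for it. Fold changes are those of the log2 means. The number of arrays limits the precision.

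Named genes were all members with reference values, the brightest and dimmest 5 of each subunit, the 5 largest ratios between the mutant arrays in each direction above background, and *MRPL44*, the gene with several probe sets. *MRPL15*, *MRPL20*, *RSM10*, *RSM26*, *IMG1* and *MNP1* fall outside this rule. Alternatives were leaving out each array, 2 t-tests on linear intensities, a prior variance in bins, raising to background, shifts of the mutant and other normalizations. The members, lists and tests were chosen with earlier results of these data known. Python 3.11.15, numpy 2.4.6, pandas 2.3.3, scipy 1.17.1 and matplotlib 3.10.9 were used.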

Additional observations from a re-analysis of the deposited data

How the results depend on the processing

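When single reference arrays were left out, the 13 decreases ranged from 11 to 12 and the 2 increases stayed. Over all rows these settings gave 538 to 563 lower and 27 to 42 higher, in place of 681 and 48. Leaving out a mutant array, which leaves a single array in that group, is described above. With values raised to background limma called 8 members lower, against 336 of all rows in place of 681. A shift of +0.5 (log2) in the mutant left 4 lower, and over all rows 254 lower and 98 higher in place of 681 and 48. With the mutant lowered by 0.5 it called 1 higher and 18 lower, and over all rows 15 higher and 1420 lower. A prior variance in 10 bins of mean value gave 12 lower and 1 higher, and over all rows 806 lower and 18 higher. The methods' t-test gave 0 lower, and over all rows 98 lower and 33 higher. Its unequal-variance form gave 0 lower and 0 higher, over all rows 0 and 0, and at an unadjusted p of at most 0.05 11 members lower and 3 higher, over all rows 1239 and 167. The cause was not tested. Over the 21 genes and 12 alternatives 63 of 252 values lost a call and 7 gained one. Only the 13 genes called lower and the 2 called higher could lose a call, and only the other 6 could gain one. The share of calls lost is therefore larger than 63 of 252. No log2 difference changed sign, but under most alternatives none could. The arrays of the strains did not overlap in these genes, so leaving out an array could not change a sign. The t-tests and the binned prior left the differences as they were. The median ratio between the mutant arrays kept its sign for the members and the large subunit under all 6 alternatives. For the small subunit it was 0.0024 over the 9 probe sets above background on both arrays, a filter that removes probe sets low on replicate 2. No paired analysis was possible because the labels number replicates in a single group and the reference arrays carry no shared number.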
